A study of Caenorhabditis elegans with 32 samples.

Results

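The pseudogenes that drew the most small RNAs in wild-type gonads of the nematode Caenorhabditis elegans were examined across the germ-granule mutants, crosses and RNA interference lineages of the series. A gene entered the group when the annotation listed it as a pseudogene and its mean over the 6 untreated wild-type libraries was at least 100 CPM. CPM is the count of a gene divided by all counts assigned to genes in the library, times 1000000. One identifier, WBGene00013537, was left out. The rule found 126 of 2103 annotated pseudogenes, among 46779 features counted, and 531 pseudogenes had no count in any library. Because wild-type levels chose the genes, those levels are given as a description with no test.

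Small RNA was sequenced from dissected gonads in 32 libraries, 3 to a group except where stated. The transgene Pmex-5::gfp::h2b::tbb-2, expressed in the germline, was present in all groups, and worms were fed OP-50 bacteria and grew at 20 °C. RNA of 21 libraries came from a column kit (miRNeasy). Of these, the meg-3(tm4259);meg-4(ax2026) double mutants, called mutants below, were the long-term strain BFF40, kept for more than 80 generations, the F15 descendants of SX1263 hermaphrodites mated to BFF40 males, and the F2 of that paternal cross and of the maternal cross, in which the BFF40 parent was the hermaphrodite. The column-kit groups without the mutations were the wild-type F2 of both crosses and the untreated wild-type strain SX1263. The other 11 libraries came from a phenol reagent (TRIZOL). They were pptr-1(tm3103) mutants (strain BFF39) as F6 progeny of gfp dsRNA treatment, with 2 libraries, untreated BFF39, wild-type F6 progeny of the same treatment, and untreated SX1263. The labels do not say whether libraries of a group came from separate cultures, so the p-values measure the spread between these libraries, which may be technical. Each test compared groups of 1 extraction.

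In the worm germline, RNA-dependent RNA polymerases copy transcripts into secondary small RNAs that Argonaute proteins bind, and these can silence the transcript and pass to progeny. The pathway acts on foreign, repetitive and aberrant transcripts, and many transcribed pseudogenes, which are damaged copies of protein-coding genes, are among its targets. The machinery gathers in germ granules at the nuclear envelope. MEG-3 and MEG-4 are disordered proteins that P granules need to form in the embryo, and PPTR-1 is a regulatory subunit of a protein phosphatase that promotes their assembly.

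Libraries held 126214 to 14871375 feature counts. The third long-term library was the shallowest, and 3 counts there, taken as the smallest detectable level, equal 23.8 CPM. The floor was 0.202 CPM in the deepest library. As a check of the labels, meg-3 had 0 to 5.90 CPM in the 12 mutant column-kit libraries and 9.94 to 29.9 CPM in the 9 others, and pptr-1 had 17.2 to 28.6 CPM in the 5 pptr-1 libraries and 34.3 to 52.1 CPM in the 6 others. The meg-4 ranges overlapped, at 0 to 51.1 CPM and 28.4 to 237 CPM. Of the germline microRNA genes mir-35 to mir-42, 7 had up to 5 to 23 counts in a library and mir-42 had at most 1. The muscle gene mir-1 and the neuronal gene lsy-6 were at 0 counts in all 32 libraries, and the glial gene mir-228 had at most 3. Counts do not tell fewer cells of a type from less small RNA per cell.

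The group took most pseudogene-matched small RNAs in every library. It held 91.5% to 96.1% of the counts of all pseudogenes and 11.2% to 14.5% of the counts of all features. Wild-type levels ran from 102 to 6810 CPM with a median of 386 CPM, against a median of 0.0286 CPM for the other pseudogenes. A total of 35 genes reached 1000 CPM and 37 lay under 200 CPM. Per kilobase of exon the median was 365 CPM, with a range of 31.1 to 9067 CPM. Protein-coding genes that passed the same threshold, 1564 of 19725, had a median of 91.3 CPM per kilobase of exon. Their median exon length was 2076.5 bases, against 1026 for the pseudogenes. The threshold was per gene, so shorter genes pass it only at a higher density, and these densities describe the chosen sets alone.

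**Figure D1:**
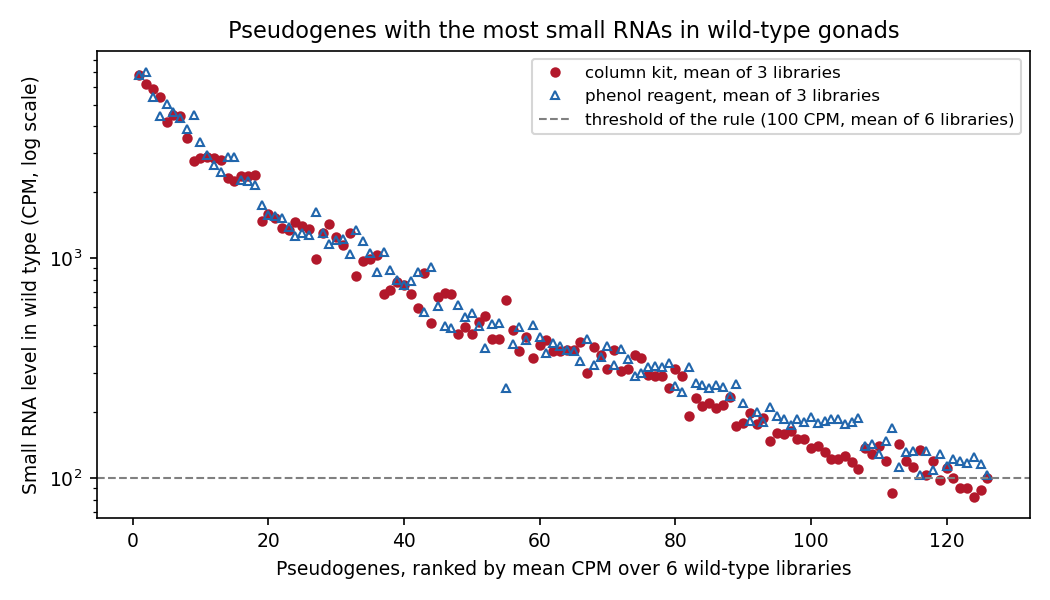
Small RNA level in untreated wild type (CPM, log scale) of each of the 126 pseudogenes, ranked by the mean of 6 libraries, as the mean of 3 column-kit libraries (filled circles) and of 3 phenol libraries (open triangles). Levels run from 6810 CPM at the left to 102 CPM at the right. The extractions lie within 1.5-fold for 112 of the 126, and Y53F4B.16, at about the middle of the ranks, has the largest ratio toward the column kit.

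The 10 highest pseudogenes held 37.6% to 42.6% of the group's CPM in the wild-type libraries. Y39E4B.14 (chromosome III, 13162475 to 13164864) was the highest, with 6809.6 ± 678 CPM (SD over 6 libraries). It was also the densest per exon length, at 9067 CPM per kilobase. F37H8.2 (chromosome II, 11171743 to 11175479) followed with 6613 ± 763 CPM and F32A11.5 (chromosome II, 13131009 to 13134212) with 5655 ± 460.5 CPM. The wild-type libraries of these 3 overlapped, so their order is within the spread. Y46H3C.6 (chromosome V, 1697889 to 1701617) had 4914 ± 609 CPM and K08B4.5 (chromosome IV, 6086350 to 6089404) 4612 ± 750.4 CPM. The next 5, Y23H5A.1, Y37H9A.2, C01G6.10, Y52B11A.18 and Y71G12B.28, averaged 4562, 4401, 3713, 3617 and 3107 CPM. Y23H5A.1 carries the symbol cars-2, after cysteinyl-tRNA synthetase. Annotated genes on the opposite strand overlap exons of Y39E4B.14, F37H8.2, Y37H9A.2 and C01G6.10, and since the strand of the counting is not given in the sources used here, reads of the partners cannot be told apart.

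In CPM, levels of the highest pseudogenes varied little across the study. Over the 11 group means, the highest was less than 2 times the lowest for 9 of the top 10, and 2.24 times the lowest for the other. The median of that ratio over the 126 was 2.77. It was under 2 for 37 genes, over 5 for 28 and over 10 for 15. The genes most like Y39E4B.14 in log2(CPM + 1) over the 11 group means were Y46H3C.6 (Pearson r 0.86), F49F1.8 (0.81) and F52C6.7 (0.79). This is a description over groups that share extractions and strains.

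The 126 pseudogenes lay on all 6 chromosomes in unequal shares of the pseudogenes there. On chromosome I, 24 of 188 pseudogenes (12.8%) qualified. The counts were 27 of 326 on II (8.28%), 16 of 175 on III (9.14%), 26 of 379 on IV (6.86%) and 16 of 174 on X (9.20%). Chromosome V, which carries the most pseudogenes, gave 17 of 861 (1.97%). The 126 were longer models than the rest of their class. Their median exon length was 1026 bases against 844 for other pseudogenes, their median span 1836 against 1165.5 bases, and they had a median of 5 exons against 3. Another annotated gene overlapped 30 of them, overlapped exons of 21, and was protein-coding for 12 of those 21. Counts of these 21 are uncertain.

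Wild-type levels from the extractions were close, although extraction and experiment coincided and cannot be told apart. Across the 126 genes, log2 CPM in column-kit and phenol wild type had a Pearson r of 0.98, a description over genes chosen on these libraries. Mean levels were within 1.5-fold for 112 genes. The libraries did not overlap for 36 genes (28.6%), 28 higher in phenol and 8 higher in the column kit. The share was 25.1% of all features and 36.6% of protein-coding genes with at least 100 CPM. Over all features, 8.56% were higher and 16.5% lower in phenol without overlap, so the direction leaned the other way. Y53F4B.16 had the largest ratio toward the column kit. It had 832, 663 and 443 CPM in column-kit wild type, against 354, 193 and 227 CPM in phenol wild type. Y24F12A.4 lay at the other end, with 69.6, 116 and 72.7 CPM in column-kit and 200.3, 149 and 161 CPM in phenol wild type.

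Small RNA levels were compared between groups with edgeR's quasi-likelihood F test over all features, and a gene was called when its Benjamini-Hochberg adjusted p was under 0.05. All 126 passed the filter on low counts. In the 7 comparisons without untreated wild type, 50 of the 126 (39.7%) were called at least once, against 16.9% of all features tested in both extractions and 27.9% of protein-coding genes with at least 100 CPM in wild type. In 3 or more comparisons 6 were called (4.76%), against 2.96% of all features and 9.34% of these protein-coding genes. The 6 comparisons with untreated wild type involve the libraries that chose the genes. Counts there were therefore taken over pseudogenes with at least 100 CPM in the wild type of the other extraction alone, 129 for column-kit and 121 for phenol comparisons. All 126 genes are among the 129 and 120 are among the 121. The protein-coding genes set beside them were chosen in the same way, 1484 for column-kit and 1633 for phenol comparisons. Scaling by total counts in place of the trimmed mean of M values (TMM) shifted the median log2 fold change of all features to between -0.42 and 0.31 across comparisons, and direction splits that moved with it by over 10 percentage points are given beside the counts.

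**Figure D2:**
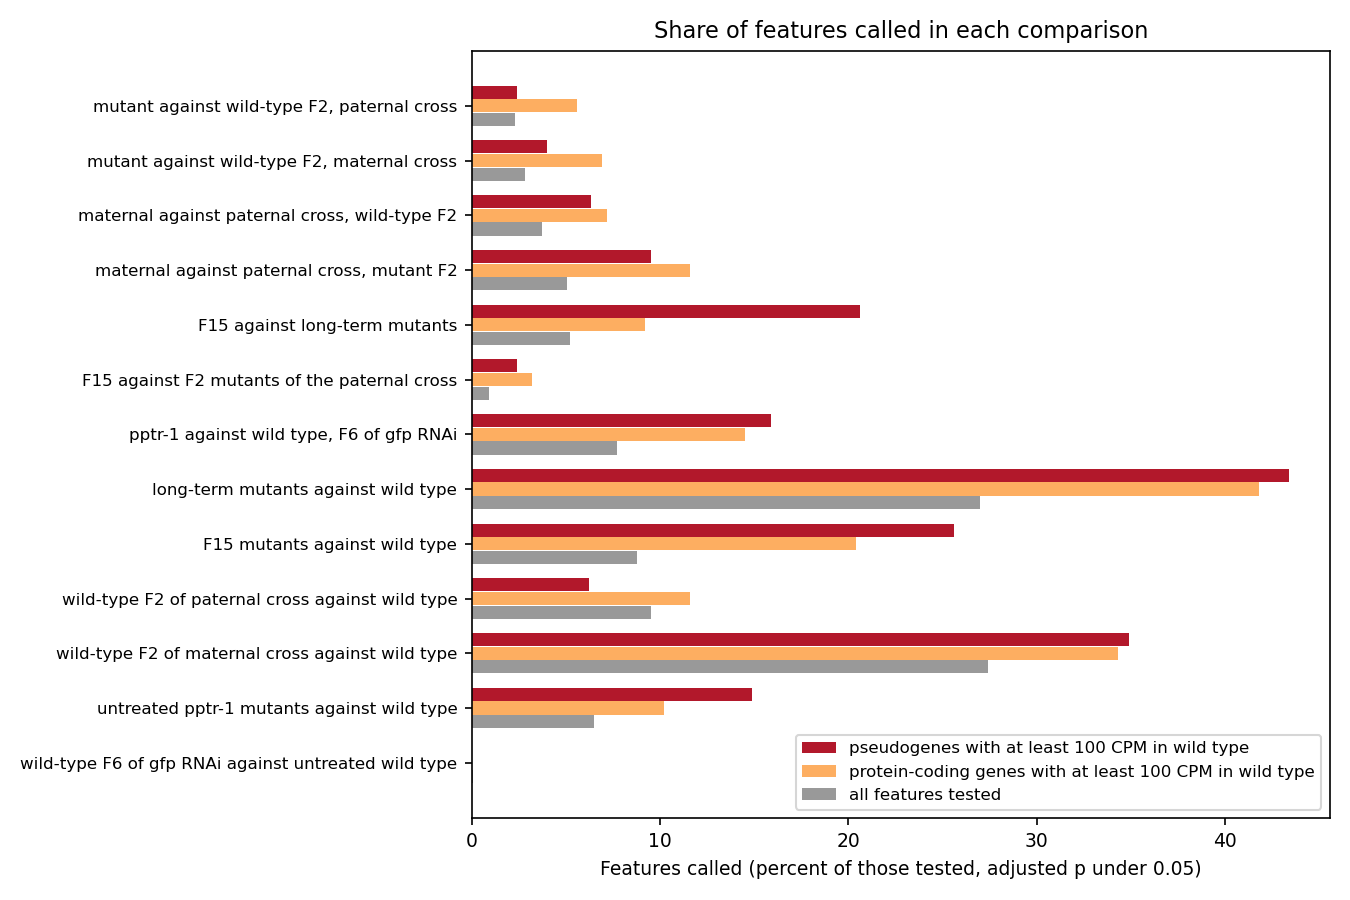
Share of features called with no replicate block (adjusted p under 0.05, percent of those tested) in each comparison for the high pseudogenes, for protein-coding genes with at least 100 CPM in wild type and for all features. For comparisons with untreated wild type the pseudogenes and protein-coding genes are those chosen on the other extraction; the long-term mutants against wild type stand highest for the pseudogenes, at 43.4%, 41.8% and 27%, and the F15 against the long-term mutants show 20.6%, 9.21% and 5.22%.

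**Figure D3:**
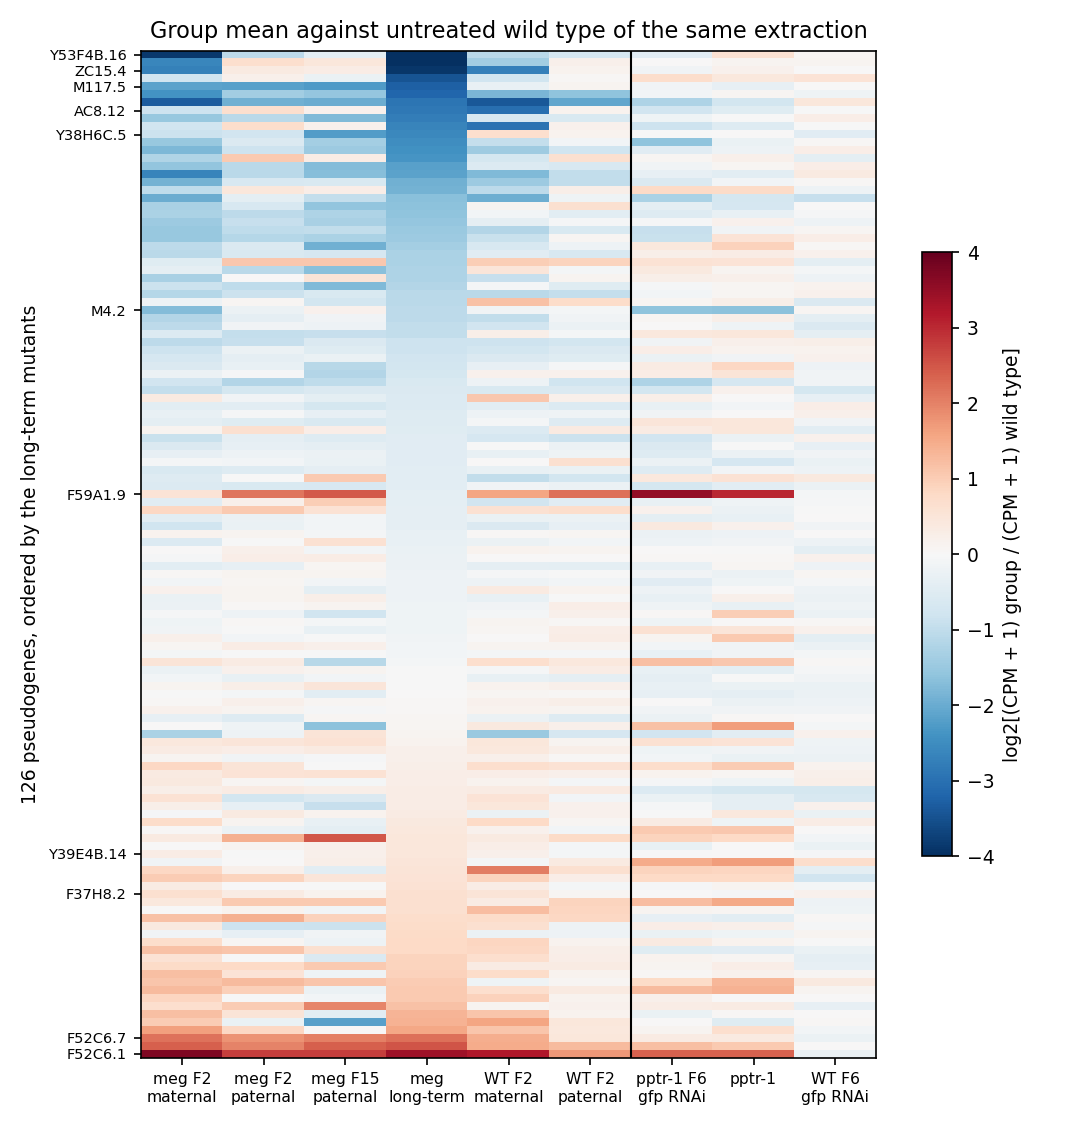
Difference of each group mean from untreated wild type of the same extraction, as log2[(CPM + 1)/(CPM + 1)], for the 126 pseudogenes (rows, ordered by the long-term mutants; colours end at -4 and 4; the vertical line separates column-kit from phenol groups). Blue rows at the top include ZC15.4, low in long-term mutants and in maternal-cross F2 of both genotypes, and Y53F4B.16, low in long-term mutants and in mutant F2 of that cross, and red rows at the bottom include F52C6.1, raised in most groups; wild type F6 of gfp RNAi is nearly blank.

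Long-term mutants differed from wild type at many of these pseudogenes. Of the 129 chosen on phenol wild type, 56 were called, 32 higher and 24 lower, which is 43.4%, while 27% of all features and 41.8% of protein-coding genes chosen on phenol wild type were called. With total-count scaling the split was 20 higher and 38 lower. Without long-term library 2 the count was 35. F52C6.1 (bath-22, chromosome II, 1927879 to 1928734), named for the BATH family of substrate adaptors of ubiquitin ligases, rose most. It had 1065, 1181 and 1291 CPM in long-term mutants, against 106, 96.6 and 130.1 CPM in wild type (log2 change 3.79 with SE 0.36, adjusted p 2.09e-06 by edgeR). T02G5.4 (chromosome II, 7082102 to 7084083) had 2627, 2753 and 3328 CPM in long-term mutants, against 503, 401 and 628 CPM in wild type (log2 change 2.88 with SE 0.33, adjusted p 1.57e-05). Libraries of both genes did not overlap between the groups, as the naming rule required. The same held for 45.1% of all features. The adjusted p of these calls ranged over their alternatives from 1.62e-39 to 4.05e-05 for F52C6.1 and from 1.3e-23 to 0.000222 for T02G5.4.

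The losses in long-term mutants reached further than the gains on the log2 scale. Y53F4B.16 (chromosome II, 15052083 to 15054573) had 8.94, 1.51 and 0 CPM in long-term mutants, the last from 0 counts with a floor of 23.8 CPM, against 832, 663 and 443 CPM in wild type (log2 change -6.79 with SE 1.68, adjusted p 0.00653; 1.82e-79 to 0.0498 over the alternatives). C06C3.5 (chromosome II, 9380106 to 9381355) had 54.8, 47 and 31.7 CPM in long-term mutants, against 1934, 2209 and 2831 CPM in wild type (log2 change -5.17 with SE 1.16, adjusted p 0.00352; 1.09e-60 to 0.0231 over the alternatives). Exons of C06C3.5 overlap a protein-coding gene and a non-coding RNA on the opposite strand, so its reads cannot be told from theirs. All long-term libraries of both genes lay below all wild-type libraries, as the naming rule required. Of the 10 highest, 4 met the call threshold, all higher in long-term mutants, and the other 6 did not. Their log2 fold changes were 0.85 for Y39E4B.14, 0.95 for Y46H3C.6, 1.02 for F37H8.2 and 1.18 for Y52B11A.18. The 10 were ranked in part on these wild-type libraries, so the values are a description with no test. These changes are on the TMM scale. Total-count scaling shifted the median log2 fold change of all features in this comparison from 0.01 to -0.42. In CPM the highest of the 11 group means was 1.45, 1.93, 1.56 and 2.24 times the lowest for these 4 genes.

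**Figure D4:**
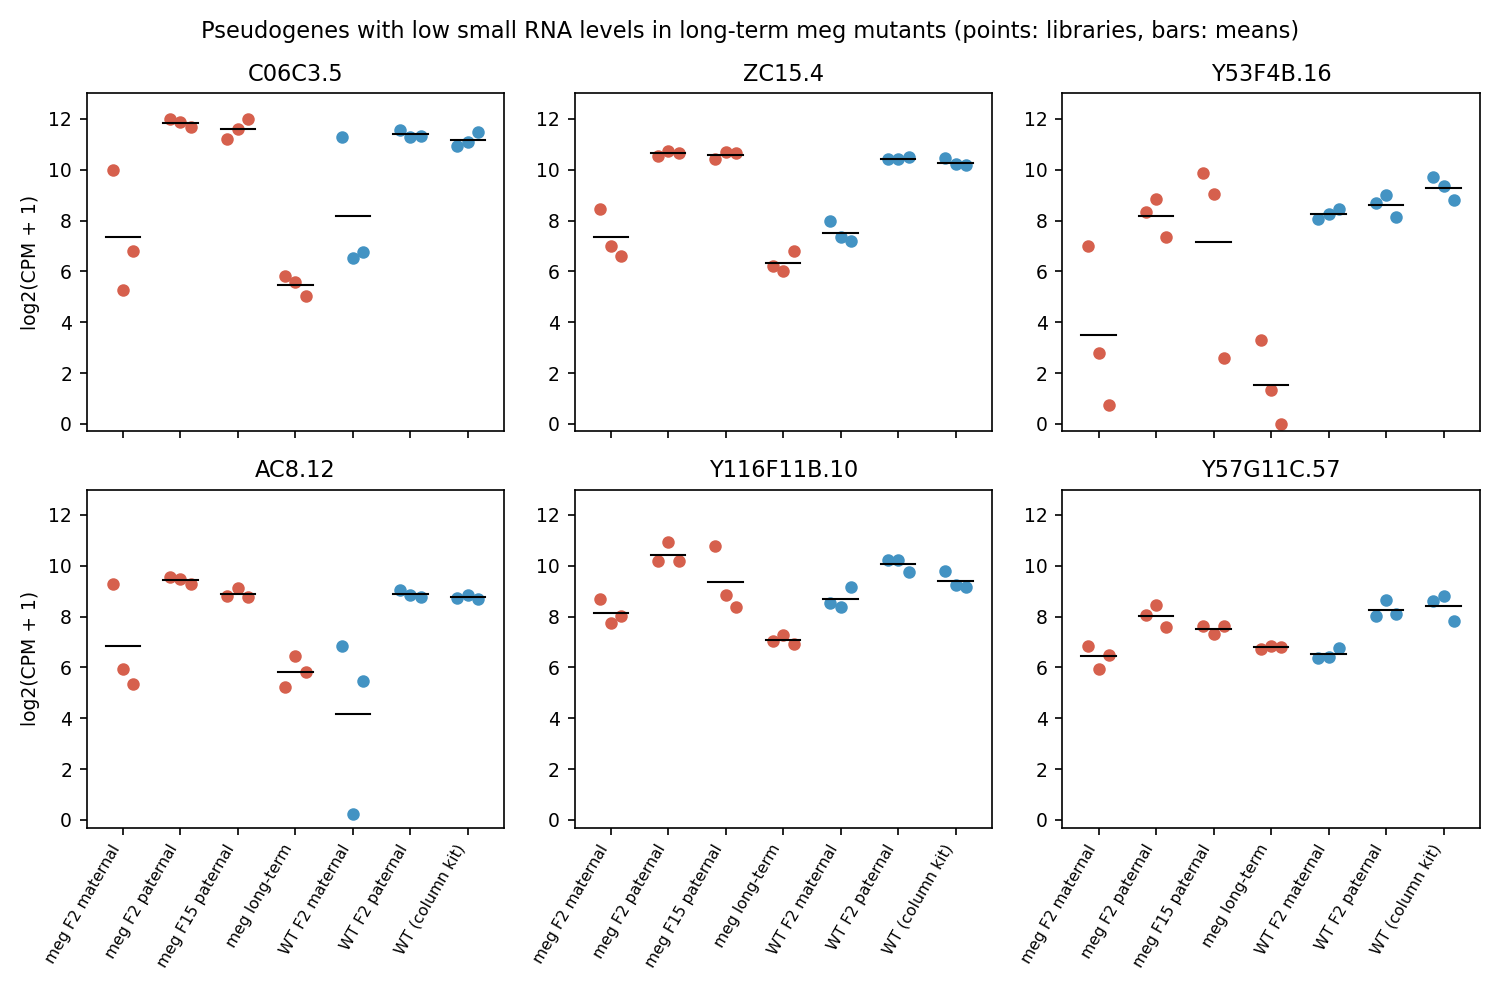
Level as log2(CPM + 1) in each column-kit library (points; bars are group means) of 6 pseudogenes that were low in long-term mutants. ZC15.4 is low in long-term mutants and in all 6 maternal-cross libraries, while C06C3.5 and AC8.12 show 1 high library in a maternal-cross group.

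F15 mutants carry the same mutations as the long-term strain but descend from a wild-type hermaphrodite, and the groups were compared to ask how far they differ. Of the 126, 26 were called, 12 higher and 14 lower in F15, or 20.6%, against 5.22% of all features and 9.21% of the high protein-coding genes, and all 26 differed at least 2-fold. With total-count scaling 16 were higher and 13 lower. The count was 16 without F15 library 1, 13 without long-term library 1 and 15 without long-term library 2. ZC15.4 (chromosome V, 20302135 to 20303443) had 1385, 1643 and 1597 CPM in F15 mutants, against 73, 63 and 111 CPM in long-term mutants (log2 change 4.12 with SE 0.37, adjusted p 3.57e-06; 2.48e-43 to 0.000994 over the alternatives). The F15 libraries overlapped or exceeded the wild-type range of 1164 to 1396 CPM. C06C3.5 had 2354, 3074 and 4087 CPM in F15 and 54.8, 47 and 31.7 CPM in long-term mutants (log2 change 5.84 with SE 1.20, adjusted p 0.00828), a call that was lost without long-term library 1 or 2 (adjusted p up to 0.0558). Y53F4B.16 varied between F15 libraries, at 937, 523 and 5.03 CPM, and the last of these overlapped the long-term range (log2 change 6.37 with SE 1.66, adjusted p 0.0337). This gene was called but falls outside the naming rule, and is named because of that overlap.

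Other pseudogenes were lower in F15 than in long-term mutants. E02H9.2 (chromosome III, 2465413 to 2466901) had 7.62, 18.6 and 70.3 CPM in F15 mutants, against 287, 374 and 491 CPM in long-term mutants and 89.5, 93.7 and 258 CPM in wild type. The F15 and long-term libraries did not overlap (log2 change -3.58 with SE 0.66, adjusted p 0.00418), and the call was lost in a fit of these 6 libraries alone (adjusted p 0.0625). Y38H6C.10 (fbxa-149, chromosome V, 20516298 to 20518036), named for the F-box proteins of ubiquitin ligases, had 1238, 1446 and 447 CPM in F15 mutants, against 4531, 3419 and 2829 CPM in long-term mutants (log2 change -2.10 with SE 0.36, adjusted p 0.00275; 1.34e-12 to 0.0308 over the alternatives). Its F15 libraries overlapped the wild-type range of 916 to 1945 CPM.

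F15 mutants were also set against wild type. Of the 129, 33 were called, 14 higher and 19 lower (25.6%), against 8.78% of all features and 20.4% of the high protein-coding genes. Total-count scaling gave 11 higher and 24 lower. The count was 21 without wild-type library 1. Same-numbered F15 and wild-type libraries deviated together, and with the replicate number as a block 14 were called, 6 higher and 8 lower, which is 10.9% against 4.82% of all features and 12.9% of the high protein-coding genes in that fit. F52C6.1 had 429, 705 and 1149 CPM in F15 mutants, against 106, 96.6 and 130.1 CPM in wild type (log2 change 3.03 with SE 0.35, adjusted p 1.49e-05; 7.97e-28 to 0.0262 over the alternatives). B0047.5 (bath-14, chromosome II, 2048061 to 2049175) had 1212, 1001 and 2093 CPM in F15 mutants, against 290.1, 246 and 239 CPM in wild type (log2 change 2.71 with SE 0.32, adjusted p 2.47e-05; 1.34e-23 to 0.0422 over the alternatives). Its long-term libraries, at 278, 329 and 452 CPM, lay far below F15. Y38H6C.5 (dct-10, chromosome V, 20506503 to 20509510) had 293, 247 and 128 CPM in F15 mutants, against 1371, 993 and 755 CPM in wild type (log2 change -2.13 with SE 0.30, adjusted p 0.000134; 3.68e-15 to 0.00986 over the alternatives). M117.5 (fbxb-4, chromosome IV, 11828973 to 11830446) had 37.4, 30.1 and 54.3 CPM in F15 mutants, against 199, 155 and 243 CPM in wild type (log2 change -2.07 with SE 0.43, adjusted p 0.0038; 8.58e-16 to 0.0235 over the alternatives). For all 4 genes the libraries of the groups did not overlap, as the naming rule required. The same held for 24.5% of all features.

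F15 mutants and F2 mutants of the paternal cross, which come from the same kind of cross, differed at 3 of the 126 (2.38%), all lower in F15, against 0.909% of all features and 3.2% of the high protein-coding genes. Total-count scaling gave 1 higher and 2 lower. The count was 8 without F15 library 2, 0 without F2 library 1, and 1 without F2 library 4. Y38H6C.5 had 293, 247 and 128 CPM in F15, against 648, 563 and 609 CPM in F2 (log2 change -1.52 with SE 0.30, adjusted p 0.0164; 9.89e-07 to 0.362 over the alternatives). E01G4.7 had 203, 386 and 216 CPM in F15, against 687, 483 and 657 CPM in F2 (log2 change -1.20 with SE 0.27, adjusted p 0.0366; 0.000364 to 0.579 over the alternatives), and the other gene called was W09C5.3, at 77.6, 80.8 and 42.3 CPM in F15, against 163, 134 and 142 CPM in F2 (log2 change -1.18 with SE 0.25, adjusted p 0.0268). In a fit of these groups alone 0 genes were called by edgeR. DESeq2 called 10 in the fit of all groups, and 27 of the 126 had an unadjusted p under 0.05 by edgeR there.

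The direction of the cross was compared within each genotype of the F2, where the hermaphrodite parent was the long-term mutant in the maternal cross and wild type in the paternal cross. In wild-type F2, 8 of the 126 were called, 6 higher and 2 lower in the maternal cross (6.35%), against 3.72% of all features and 7.16% of the high protein-coding genes. The count was 4 without paternal-cross library 1 or 3 or maternal-cross library 4, and 5 without paternal-cross library 4. In mutant F2, 12 were called, 8 higher and 4 lower (9.52%), against 5.07% of all features and 11.6% of the high protein-coding genes. Total-count scaling gave 5 higher and 11 lower there. The count was 4 without paternal-cross library 3 or maternal-cross library 3, and 7 without maternal-cross library 4. The genotypes share no library, and 5 genes were called in both, with the same sign, which is 62.5% of the 8 and 41.7% of the 12. They were K03D3.13, F49F1.8, ZC15.4, Y57G11C.57 and F52C6.1. The matching share over all features was not computed, so the overlap is a description of these genes.

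ZC15.4 separated the crosses most fully. In wild-type F2 it had 249.9, 160.4 and 145 CPM in the maternal cross, against 1358, 1367 and 1435 CPM in the paternal cross (log2 change -2.76 with SE 0.33, adjusted p 4.06e-05; 3.57e-23 to 0.00461 over the alternatives). In mutant F2 it had 353, 126 and 96.4 CPM in the maternal cross, against 1479, 1724 and 1621 CPM in the paternal cross (log2 change -2.85 with SE 0.33, adjusted p 6.86e-05; 5.03e-25 to 0.0123 over the alternatives). Every maternal-cross library lay below every paternal-cross library in both genotypes, as the naming rule required. The maternal-cross libraries lay above or within the long-term range of 63 to 111 CPM. Y57G11C.57 (chromosome IV, 14780940 to 14781266) had 82.7, 85 and 107 CPM in maternal-cross wild-type F2, against 261, 400.0 and 275 CPM in those of the paternal cross (log2 change -1.60 with SE 0.29, adjusted p 0.00272; 7.2e-09 to 0.0385 over the alternatives). Y116F11B.10 (chromosome V, 19870506 to 19873931) had 418, 215 and 257 CPM in mutant F2 of the maternal cross, against 1150.3, 1979.6 and 1170.3 CPM in those of the paternal cross (log2 change -2.03 with SE 0.44, adjusted p 0.00958). That call was lost without maternal-cross or paternal-cross library 3 (adjusted p up to 0.0581).

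Other pseudogenes were higher in the maternal cross. F52C6.1 had 1124, 827 and 1162 CPM in maternal-cross wild-type F2, against 446, 305 and 372 CPM in those of the paternal cross (log2 change 1.64 with SE 0.33, adjusted p 0.00536; 3.35e-09 to 0.0397 over the alternatives). F59H6.2 (chromosome II, 2019654 to 2022596) had 455, 495 and 544 CPM in the maternal cross, against 264, 118 and 182 CPM in the paternal cross of wild-type F2 (log2 change 1.59 with SE 0.31, adjusted p 0.00456), and this call was lost with the replicate number as a block (adjusted p 0.0727). In mutant F2, Y51A2A.14 (chromosome V, 18296428 to 18297366) had 159, 202 and 201 CPM in the maternal cross, against 88.3, 81.9 and 67.5 CPM in the paternal cross (log2 change 1.52 with SE 0.31, adjusted p 0.00688; 1.89e-08 to 0.0396 over the alternatives). Y48G1BM.7 had 166, 234 and 228 CPM in the maternal cross, against 113, 57.7 and 85.1 CPM in the paternal cross (log2 change 1.58 with SE 0.33, adjusted p 0.00826), lost without paternal-cross library 3 (adjusted p 0.0512). Libraries of the crosses did not overlap for these 4 genes, as the naming rule required. The same held for 25.4% of all features in wild-type F2 and 27.7% in mutant F2.

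A few genes split the libraries of a single maternal-cross group, and these were chosen after their values were seen. C06C3.5 had 1002, 37 and 109.8 CPM in mutant F2 of the maternal cross and 2486, 91.8 and 108 CPM in wild-type F2 of that cross, against 3274 to 4093 and 2507 to 3028 CPM in mutant and wild-type F2 of the paternal cross. Library 1 was high in both maternal-cross groups, and the others lay nearer the long-term level. AC8.12 (chromosome X, 239849 to 240781) had 626, 60.1 and 40 CPM in mutant F2 and 113, 0.171 and 43.6 CPM in maternal-cross wild-type F2, the middle value of the wild-type F2 resting on 1 count. Library 1 was the highest in each. Neither gene was called between the crosses (C06C3.5: edgeR adjusted p 0.525 in wild-type and 0.0876 in mutant F2; AC8.12: 0.0985 and 0.484). Y53F4B.16 had 126, 5.86 and 0.67 CPM in mutant F2 and 264, 308 and 348 CPM in maternal-cross wild-type F2, and here the mutant libraries were spread while the wild-type F2 libraries lay close together, though the genotypes were not called different (log2 change -2.84 with SE 1.22, adjusted p 0.345).

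Mutant and wild-type F2 of the same cross were compared to see the effect of the genotype within a line. In the paternal cross with no block, 3 of the 126 were called, 1 higher and 2 lower (2.38%), against 2.28% of all features and 5.56% of the high protein-coding genes. Total-count scaling gave 4 higher and 2 lower. Same-numbered libraries deviated together in both crosses, and with the block 29 genes were called in the paternal cross, 16 higher and 13 lower, which is 23.0% against 6.37% of all features and 15.0% of the high protein-coding genes in that fit. In the maternal cross the block gave 6 calls, 2 higher and 4 lower, or 4.76% against 2.12% of all features. The paternal-cross count thus depends on the block, and the genes named below come from the fit with no block. In the paternal-cross fit with no block, the count was 1 without wild-type library 1, 3 or 4 or mutant library 1, and 0 without mutant library 4. In the maternal cross with no block, 5 were called, 1 higher and 4 lower (3.97%), against 2.83% of all features and 6.91% of the high protein-coding genes. The count was 2 without wild-type library 3 or mutant library 1, and 0 without wild-type library 4 or mutant library 3. With no block, M117.5 and Y38H8A.8 were called in both crosses. A test of whether the genotype difference itself differed between the crosses, added after seeing the data, called 0 of the 126 by edgeR (0.0196% of all features), with 1 gene at an unadjusted p under 0.05 and 0 called by DESeq2.

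M117.5 was low in each mutant group. It had 58.1, 39.9 and 31.6 CPM in mutant F2, against 266, 186 and 191 CPM in wild-type F2 of the paternal cross (log2 change -2.27 with SE 0.43, adjusted p 0.0062). In the maternal cross it had 64.6, 32.6 and 37.2 CPM in mutant F2, against 81.9, 199.9 and 209 CPM in wild-type F2 (log2 change -1.82 with SE 0.43, adjusted p 0.0229). The groups did not overlap in either cross. The paternal-cross call was lost without mutant library 4 (adjusted p 0.0542) and the maternal-cross call in 6 of 12 alternatives, the replicate block among them (adjusted p up to 0.199). Y38H8A.8 (chromosome IV, 13456976 to 13458841) had 516, 584 and 479 CPM in mutant F2, against 949, 986 and 917 CPM in wild-type F2 of the paternal cross (log2 change -0.83 with SE 0.21, adjusted p 0.0482; 0.00548 to 0.206 over the alternatives). In the maternal cross its values were 349, 261 and 482 CPM in mutant and 791, 702 and 842 CPM in wild-type F2 (log2 change -0.98 with SE 0.21, adjusted p 0.0146), also without overlap.

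The other calls between genotypes with no block fell in 1 cross each, and the difference between the crosses was not called for any of them. Y38H6C.5 had 539.8, 379 and 809 CPM in mutant F2, against 1442, 1402 and 2168 CPM in maternal-cross wild-type F2 (log2 change -1.43 with SE 0.30, adjusted p 0.00941; 2.98e-07 to 0.121 over the alternatives). In the paternal cross it had 648, 563 and 609 CPM in mutant F2, against 1127, 1137 and 1186 CPM in wild-type F2. It was not called there by edgeR with no block (adjusted p 0.14). F31C3.10 (rrn-3.56), a fragment of a ribosomal RNA gene, had 1499, 1277 and 1664 CPM in mutant F2, against 676, 632 and 542 CPM in maternal-cross wild-type F2 (log2 change 1.39 with SE 0.35, adjusted p 0.0306; 4.77e-06 to 0.113 over the alternatives). Ribosomal RNA genes are a repeated array, so its counts are uncertain. F52C6.7 (bath-11, chromosome II, 1913605 to 1916376) had 2376, 1758 and 2114 CPM in mutant F2, against 969, 704 and 778 CPM in wild-type F2 of the paternal cross (log2 change 1.37 with SE 0.33, adjusted p 0.0321; 7.85e-06 to 0.151 over the alternatives).

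Wild-type F2 were also set against untreated wild type. For the paternal cross 8 of the 129 were called, 6 higher and 2 lower (6.2%), against 9.5% of all features and 11.6% of the high protein-coding genes. Relative log expression scaling gave 4 higher and 3 lower. The count was 4 without wild-type library 1 or 2 or F2 library 1 or 4. For the maternal cross 45 were called, 33 higher and 12 lower (34.9%), against 27.4% of all features and 34.3% of the high protein-coding genes. Of all features called there 1294 were higher and 1511 lower, and of the high protein-coding genes 238 were higher and 271 lower. Total-count scaling gave 18 higher and 19 lower of the 129. The count was 27 without wild-type library 2 or F2 library 4.

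In the paternal cross F59A1.9 (fbxa-193, chromosome V, 17653482 to 17655281) had 729, 547 and 545 CPM in wild-type F2, against 137, 129 and 128 CPM in wild type (log2 change 2.35 with SE 0.42, adjusted p 0.0053; 7.07e-17 to 0.0303 over the alternatives). F52C6.1 had 446, 305 and 372 CPM in these F2, all above wild type (log2 change 1.90 with SE 0.33, adjusted p 0.00463; 1.51e-10 to 0.0283 over the alternatives). Y73B6A.6 (chromosome IV, 6704925 to 6707052) was lower, at 24, 37.8 and 20.6 CPM in paternal-cross F2, against 117, 124 and 119.8 CPM in wild type (log2 change -1.97 with SE 0.38, adjusted p 0.00751; 3.61e-12 to 0.0586 over the alternatives). Y82E9BR.1 had 48.9, 25.4 and 43.7 CPM in the F2, against 92.8, 103 and 170.1 CPM in wild type (log2 change -1.49 with SE 0.45, adjusted p 0.0449; 7.09e-08 to 0.128 over the alternatives). In the maternal cross F52C6.1 reached a log2 fold change of 3.54 (SE 0.35, adjusted p 3.23e-06) and F59H6.2 one of 2.38 (SE 0.32, adjusted p 9.13e-05). Y73B6A.6 had 8.19, 11.7 and 12.1 CPM there (log2 change -3.15 with SE 0.40, adjusted p 5.5e-05; 7.95e-28 to 0.0149 over the alternatives). AC8.12 fell with wide spread (log2 change -2.82 with SE 0.98, adjusted p 0.0392; 1.83e-26 to 0.265 over the alternatives).

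**Figure D5:**
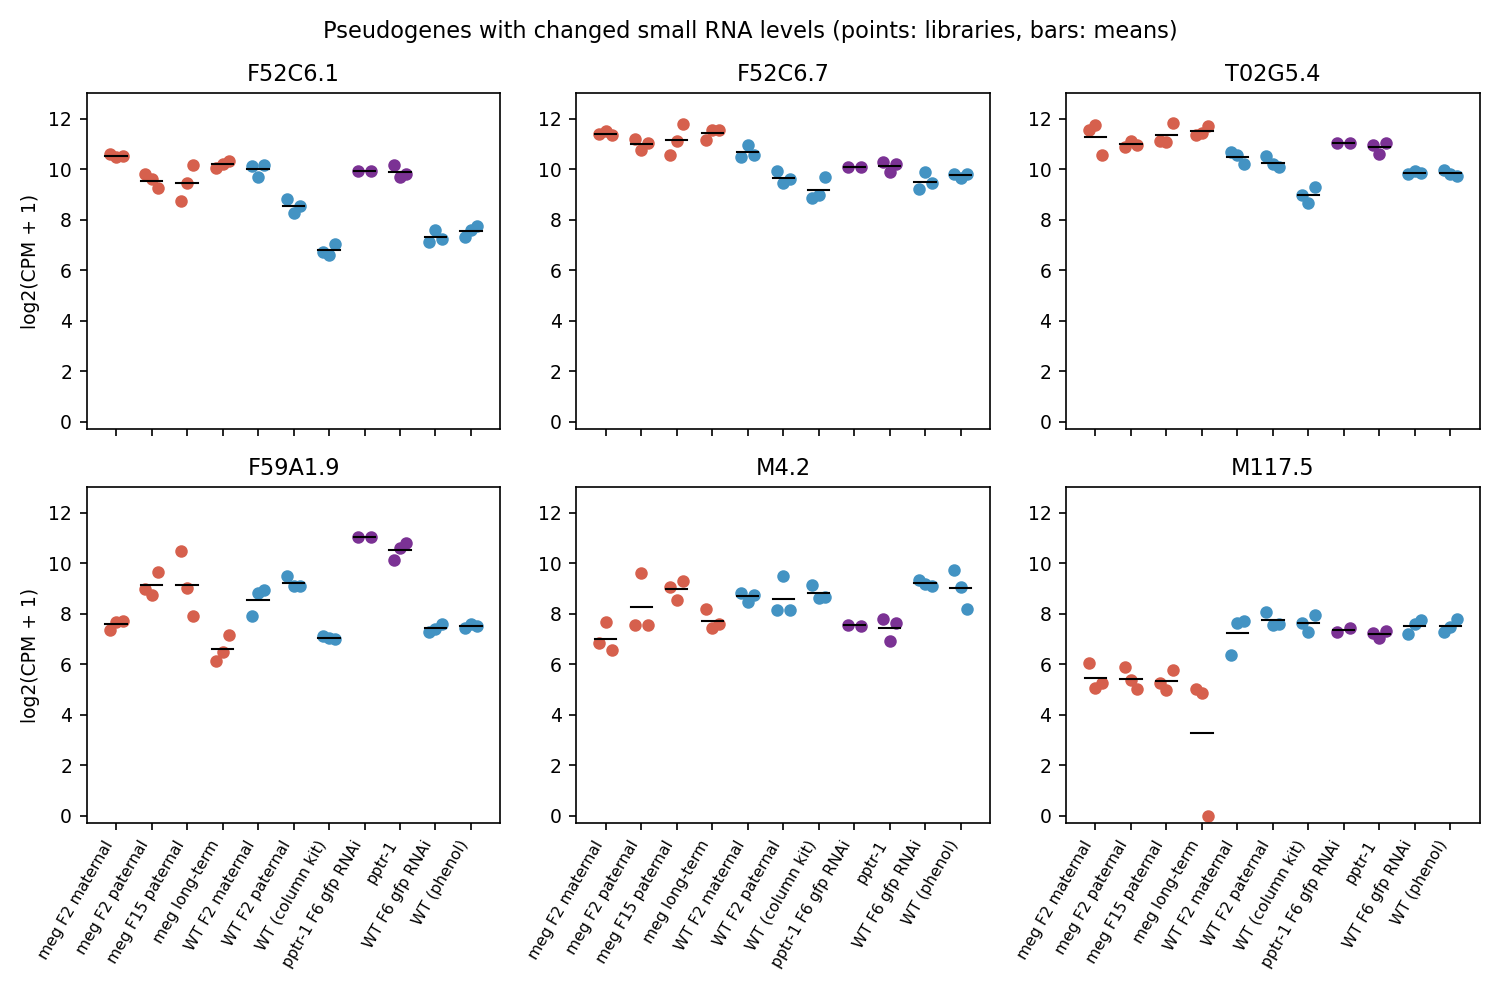
Level as log2(CPM + 1) in each of the 32 libraries (points; bars are group means) of 6 pseudogenes with called changes. F52C6.1 stands above untreated wild type in the meg and pptr-1 mutants and in the wild-type F2, F59A1.9 peaks in pptr-1 mutants, and M117.5 is low in meg mutants (0 in the shallow long-term library 3) but not in pptr-1 mutants.

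The pptr-1 mutants were compared with wild type in 2 settings that share no library. As F6 progeny of gfp dsRNA treatment, 20 of the 126 were called, 10 higher and 10 lower in pptr-1 (15.9%), against 7.73% of all features and 14.5% of the high protein-coding genes. Total-count scaling gave 15 higher and 9 lower. The pptr-1 group had 2 libraries, and the count was 5 without library 2 and 6 without library 3, where the remaining library was assumed to vary like the other groups. In untreated worms 18 of the 121 chosen on column-kit wild type were called, 17 higher and 1 lower (14.9%), against 6.48% of all features and 10.2% of the high protein-coding genes. Of all features called there 450 were higher and 255 lower, and of the high protein-coding genes 55 were higher and 111 lower. Total-count scaling gave 17 higher and 4 lower of the 121. Of the 120 genes of the group in that list, 18 were called in each setting and 10 in both, all with the same sign, which is 55.6% of either. The share of all features called in both settings was not computed.

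F59A1.9 showed the largest rise in both. In F6 progeny it had 2116 and 2072 CPM in pptr-1 mutants, against 154, 166 and 193 CPM in wild type (log2 change 3.47 with SE 0.18, adjusted p 1.12e-06; 1.53e-79 to 4.06e-05 over the alternatives). Untreated worms had 1104, 1562 and 1769 CPM in pptr-1 mutants, against 173, 191 and 181 CPM in wild type (log2 change 3.09 with SE 0.17, adjusted p 8.16e-07; 1.47e-78 to 0.000319 over the alternatives). F52C6.1 came next. It had 967 and 968 CPM in pptr-1 F6, against 139, 193 and 149 CPM in wild-type F6 (log2 change 2.45 with SE 0.22, adjusted p 9.25e-05; 8.18e-27 to 0.00246 over the alternatives), and 1163, 832 and 897 CPM in untreated pptr-1 mutants, against 157, 191 and 217 CPM in untreated wild type (log2 change 2.46 with SE 0.21, adjusted p 5.31e-05; 1.22e-30 to 0.00149 over the alternatives). Libraries did not overlap in any of these comparisons, as the naming rule required. The same held for 44.1% of all features in F6 progeny and 25.4% in untreated worms. T02G5.4, E01G4.7, B0047.5, F59H6.2, M162.9, W06A11.4 and Y57A10A.1 were the other genes higher in both settings, with log2 fold changes of 0.66 to 1.30 in F6 and 0.62 to 1.60 in untreated worms.

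M4.2 (puf-4, chromosome IV, 3204559 to 3210582), named for the Pumilio family of RNA-binding proteins, was lower in both settings. It had 188 and 182 CPM in pptr-1 F6, against 639, 577 and 552 CPM in wild-type F6 (log2 change -1.82 with SE 0.42, adjusted p 0.0216; 1.39e-14 to 0.168 over the alternatives). Untreated pptr-1 mutants had 220.0, 120.3 and 199 CPM, against 858, 538 and 294 CPM in untreated wild type (log2 change -1.57 with SE 0.36, adjusted p 0.0208; 1.78e-15 to 0.08 over the alternatives). The groups did not overlap in either, as the naming rule required, and untreated wild type was spread widely. Y73B6A.6 had 44.3 and 66.8 CPM in pptr-1 F6, against 226, 164 and 149 CPM in wild-type F6 (log2 change -1.84 with SE 0.50, adjusted p 0.0449; 8.85e-15 to 0.311 over the alternatives). In untreated worms its values were 111, 44.5 and 78.1 CPM in pptr-1 mutants and 209.9, 112 and 71.7 CPM in wild type, which overlapped.

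Descent from gfp dsRNA treatment left no called difference at these pseudogenes in wild type. Of the 121 chosen on column-kit wild type, 0 were called between wild-type F6 and untreated wild type by edgeR, against 0.0644% of all features, while 8 had an unadjusted p under 0.05 and DESeq2 called 1. The log2 fold changes of the 121 ran from -0.84 to 0.78 with a median of 0.00. F52C6.1 had 139, 193 and 149 CPM in F6 and 157, 191 and 217 CPM in untreated wild type, and F59A1.9 had 154, 166 and 193 and 173, 191 and 181 CPM.

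Of the 126 pseudogenes, 24 carry a gene symbol in RefSeq and the others only a sequence name, a grouping made after values were seen. F-box (fbxa-117, fbxa-149, fbxa-193, fbxa-203, fbxb-4) and BATH (bath-11, bath-12, bath-14, bath-22) names made up 9 of the 24, with 149.6 to 1355 CPM in wild type. Of these 9, 6 were called in at least 1 of the 7 comparisons without untreated wild type, and of the 15 other named genes 5, beside 50 of all 126 (39.7%) and 16.9% of all features. Both families are large in worms, so counts of their copies are uncertain where the authors' counting could split reads. Among the 15 were pseudogenes of Argonaute genes, the protein class that binds these small RNAs. F55A12.1 (wago-2) had 435 ± 90.1 CPM in wild type and C01G5.2 (prg-2) 238 ± 46.9 CPM (SD over 6 libraries), and neither was called in the 7 comparisons. Against wild type, F55A12.1 had 751, 647 and 737 CPM in long-term mutants and 319, 327 and 493 CPM in wild type (log2 change 1.29 with SE 0.31, adjusted p 0.005). C01G12.4 (wee-1.2), a copy of a cell-cycle kinase gene, had 82, 59.2 and 87.2 CPM in long-term mutants, against 268, 279 and 336 CPM in wild type (log2 change -1.60 with SE 0.37, adjusted p 0.00416). It also fell in pptr-1 F6 (log2 change -0.79 with SE 0.16, adjusted p 0.0128).

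Some of the genes lie near another member that may be a copy, which was not checked by sequence. AC8.7 (chromosome X, 230433 to 231365) and AC8.12 (chromosome X, 239849 to 240781) are models of equal length, 933 bases with 744 of exon on the same strand. They averaged 467 and 469 CPM in wild type, and their log2 CPM had a Pearson r of 0.998 over the 32 libraries. AC8.7 followed the split of AC8.12 in the maternal cross, with 635, 68.7 and 33.2 CPM in mutant F2 and 116, 0.685 and 45.5 CPM in wild-type F2. Reads may have been divided between them, so they stand as 1 signal. The BATH pair F52C6.7 and F52C6.1 lie 11502 bases apart on chromosome II, with an r of 0.83 over the 32 libraries. The same caution holds, although their exon lengths differ (924 and 696 bases). Neighbours F56D6.17 and F56D6.16, with 447 and 555 bases of exon, had an r of 0.84, so nearness and r do not mark copies. Y71A12B.2 and Y71A12B.3, each with 953 bases of exon, had 104 and 105 CPM and an r of 0.83. Libraries of a group share strain and extraction, so these values are descriptions.

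The threshold divides a continuum. The genes just inside it were K08F11.6 at 104 CPM, Y24F12A.3 at 102 CPM and F27B3.7 at 102 CPM in wild type. Those just outside were F31A9.4 at 96.1 CPM, C18B12.5 at 94.9 CPM and C29G2.2 at 94.4 CPM.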

How the data were processed

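Small RNA was counted in 32 libraries of 11 groups, taken from the labels. The deposited values were whole-number counts of reads per feature, not normalized by the authors. The submitters' processing notes name cutadapt, FastQC, HTSeq, DESeq2 and the build ce11, without versions. The aligner, the use of strand and the handling of reads that match several places are not given in the sources used here. Biotypes and coordinates came from the WBcel235 annotation (Ensembl release 115), the same assembly as ce11, and symbols from RefSeq, which matched 126 of 126 pseudogenes. The tallies after the last feature were left out of library sizes, and 53.0% to 61.8% of tallied reads were assigned to a feature. The members, lists and comparisons were chosen with earlier results of these data known.

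Tests used edgeR 4.0.16 (R 4.3.3), with its quasi-likelihood F test (two-sided) and Benjamini-Hochberg adjustment over all features. The filter required 10 or more counts in 3 or more libraries and left 10230 column-kit and 10873 phenol features. Each extraction had 1 fit of all its groups, with TMM scaling and no block. Standard errors were obtained from the log2 change and F. The code was tested on simulated data. DESeq2 1.42.0, other scalings, no filter, fits of the compared groups alone, a replicate block and the removal of each library were tried. Named genes were the 10 highest, the 2 largest changes in each direction per comparison among called genes whose libraries did not overlap, and the 3 on each side of the threshold. A search for members that share sequence was not made here. Replicate numbers were taken to pair libraries where all 3 same-numbered pairs had deviations from the group means correlated above 0.1. This held for F15 mutants and wild type (0.111 to 0.187) and for the genotypes in the paternal (0.203 to 0.310) and maternal cross (0.169 to 0.200). Untreated pptr-1 mutants and wild type share only 2 numbers, so the rule could not hold, although these pairs correlated at 0.267 and 0.338. Every one of the 31 replicate pairs exceeded sampling noise (lowest chi-square per degree of freedom 1.70), so all libraries were kept. Summaries and plots used Python 3.11.15 with pandas 2.3.3, numpy 2.4.6 and matplotlib 3.10.9.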

Additional observations from a re-analysis of the deposited data

How the results depend on the processing

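None of the 235 called results of the 126 genes over the 13 comparisons turned its sign under any alternative tried. The alternatives reuse the same libraries, so a called change had little room to turn, and this adds no independent support. The 235 include calls against the untreated wild-type libraries that chose the genes. Of their 1403 results that were not called, 546 changed sign under at least 1 alternative, 217 of them with total-count scaling, and 0 were called in the other direction. Among these were 69 of the 123 results of the 10 highest genes that were not called. Counts of called genes, by contrast, moved with the setting, and the cause was not tested unless the alternative itself shows it. Calls over all features moved as well. With DESeq2 they went from 841 to 1285 for pptr-1 F6. With the block they went from 233 to 652 and from 289 to 217 for the paternal- and maternal-cross F2 genotypes, and from 898 to 493 for F15 against wild type. For the paternal-cross F2 genotypes, the share with the block went from 2.38% to 23.0% of the pseudogenes. It went from 5.56% to 15.0% of the high protein-coding genes and from 2.28% to 6.37% of all features. For fits with no filter, of the compared groups alone, with 1 library left out and for the other block fits, the share of all features was not computed. The counts below are therefore not read as a change particular to the pseudogenes. Without the filter on low counts the calls became 12 and 23 between the F2 genotypes in the paternal and maternal cross, 26 and 37 for the maternal against the paternal cross in wild-type and mutant F2, 40 for F15 against long-term mutants, 17 for F15 against paternal-cross F2 mutants, 32 for pptr-1 F6, 22 for paternal-cross wild-type F2 against wild type, 29 for untreated pptr-1 mutants, 4 for wild-type F6 of gfp RNAi and 6 for the difference of genotype effects between crosses. DESeq2 called 6 and 8 between the F2 genotypes in the paternal and maternal cross, 10 for F15 against paternal-cross F2 mutants, 32 for pptr-1 F6, 30 for untreated pptr-1 mutants and 1 for wild-type F6 of gfp RNAi. Of all features it called 332, 435, 188, 1285, 1061 and 75 in these comparisons, in that order. Total-count scaling gave 6 for the paternal-cross F2 genotypes, with 224 of all features. Fits of the compared groups alone gave 5 and 1 for the F2 genotypes in the same order, 14 for F15 against long-term mutants, 0 for F15 against paternal-cross F2 mutants, 38 for pptr-1 F6 and 18 for paternal-cross wild-type F2 against wild type. With the replicate block, 29 were called for the paternal-cross F2 genotypes, 14 for F15 against wild type, 4 and 7 for the maternal against the paternal cross in wild-type and mutant F2, 0 for F15 against paternal-cross F2 mutants, 63 for pptr-1 F6, and 4 and 5 for paternal- and maternal-cross wild-type F2 against wild type. The block used only libraries whose number occurs in both groups. The pairing rule did not hold in the comparisons other than the 3 paired ones. Untreated pptr-1 mutants and wild type share only 2 numbers, too few for the rule, and correlated at 0.267 and 0.338. Leaving out 1 library at a time gave 0 to 2 (paternal) and 0 to 5 (maternal) for the F2 genotypes, 4 to 9 and 4 to 17 for the crosses in wild-type and mutant F2, 13 to 34 for F15 against long-term mutants, 0 to 8 for F15 against paternal-cross F2 mutants, 5 to 18 for pptr-1 F6, 35 to 52 for long-term mutants, 21 to 33 for F15 mutants, 4 to 6 for paternal-cross and 27 to 39 for maternal-cross wild-type F2 against wild type, 13 to 20 for untreated pptr-1 mutants, and 0 for wild-type F6 of gfp RNAi and for the difference of genotype effects. A threshold of 50 or 200 CPM would have chosen 171 or 89 pseudogenes. Depth limited the third long-term library most, where 5 of the 126 had no count at a floor of 23.8 CPM.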
